A study of Homo sapiens with 4 samples.

Results

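The genes described are those named for proteins of the mitochondrial ribosome. Their symbols start with MRPL (large subunit) or MRPS (small subunit) followed by a number. Membership rests on the symbol alone, and the place of each protein in the ribosome was not checked. Pseudogenes were left out. The rule gave 78 protein-coding genes in the GENCODE 29 annotation, 49 with a large-subunit and 29 with a small-subunit symbol. Of these, 76 had a gene identifier among the 57820 in the count files, and 74 reached at least 1 CPM (counts scaled to a common library total) in some library, as did 14847 genes in all. MRPL30 with 1 read and MRPS24 with 41 reads in the WT library did not reach that level, and the identifiers of MRPL45 and MRPS21 were not matched. All 78 genes were matched to splice junctions, so these 4 genes are described from junction reads only.

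The study measured RNA from HEK293T, a human embryonic kidney line that carries the SV40 large T antigen, by poly(A)-selected, stranded, paired-end sequencing. Cells were transfected with an expression vector for SF3B1 as wild type (WT) or with R625H, K666T or K700E, each of which changes 1 residue of this core spliceosome protein. R625H and K666T were given as 1000 ng of plasmid and K700E as 2000 ng; for WT the labels give no amount. K700E therefore cannot be told apart from its larger plasmid amount. Each vector is represented by 1 library, so levels have no replicate check and no test, and the tests on splicing compare libraries, not conditions.

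The mitochondrial ribosome translates the few mRNAs of the mitochondrial genome, all of which encode subunits of the respiratory chain or of ATP synthase. All of its proteins are encoded in the nucleus, made in the cytosol and imported, and many have a bacterial counterpart while others are specific to mitochondria. SF3B1 is part of the U2 particle that recognises the branch point, and its hotspot mutations are known for the use of cryptic acceptors a short distance upstream of the normal one. An acceptor is the end of an intron and a donor its start.

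Reads assigned to genes numbered 82254731 to 90939945 per library and reads on splice junctions 66015665 to 72034388. SF3B1 itself stood at 506, 517, 521 and 512 CPM in WT, R625H, K666T and K700E. Of markers of the line, VIM was at 521 to 660 and NEFM at 329 to 428 CPM in each library, INA at 44.97 to 52.8 and PAX2 at 1.75 to 2.65. Of 6 markers of other cell types, 5 were found in the files; COL3A1 (fibroblasts) was at 5.59 to 7.80 CPM, PTPRC, CD3E and ALB were below 0.5, and HBG1 was at 0 in all 4 libraries. The WT library, the reference of every ratio to WT, stood apart in its unmapped reads, 8.84% against 15.17% to 17.31% in the mutants. All reads that name no gene, unmapped ones included, were 21.9% against 28.45% to 29.55%. Mapped reads outside genes did not set WT apart, at 5.23% against 5.01% to 5.87%. The part of the unmapped reads in the ratios was not tested. K700E stood apart along the transcript. Among 60 genes of the mitochondrial ribosome with at least 50 WT reads on both the first and the last intron, the median log2 ratio to WT of scaled junction reads was 0.30 at the first intron and -0.26 at the last. Over 6551 matched genes of all kinds these medians were 0.20 and -0.17. In R625H and K666T the same medians over the 60 genes lay between -0.03 and 0.00. The first intron was above the last in 52 of the 60 genes in K700E, in 28 in R625H and in 26 in K666T, and over all matched genes in 76.0%, 50.4% and 42.7%. The part of this difference along the transcript in the K700E results was not tested.

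**Figure D1:**
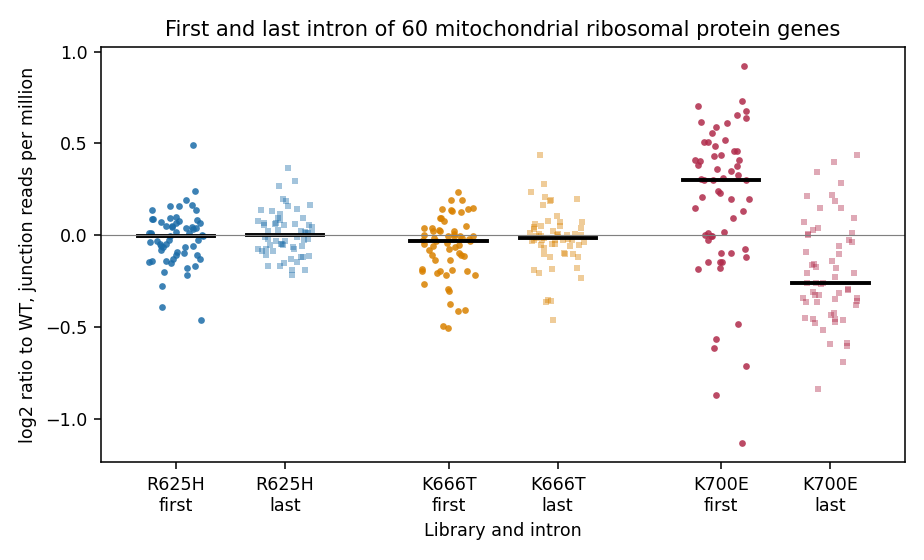
Each point is 1 of 60 mitochondrial ribosomal protein genes; the vertical axis is the log2 ratio to WT of scaled junction reads at the first (circles) or last (squares) intron of the longest coding transcript, and black bars are medians. In K700E the first introns lie mostly above 0 and the last introns mostly below, which the other libraries do not show.

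Sequences are shown here for the sites at which reads moved in these genes. The acceptor pairs come from retained-intron transcripts of GENCODE 29 (GRCh38) that run through the intron end, and the capitals mark the bases between the unannotated upstream acceptor and the annotated one. They begin after the AG of the upstream acceptor and end with the AG of the annotated acceptor, and both stretches are a multiple of 3 bases long.
MRPS18C: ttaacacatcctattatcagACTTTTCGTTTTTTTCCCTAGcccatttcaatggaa
MRPS27: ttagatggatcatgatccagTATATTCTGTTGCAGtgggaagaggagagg
The third sequence is the 78 bases at the end of the first coding exon of MRPL11, present in the mRNA when the downstream donor is used and absent when the upstream one is used. It is a multiple of 3 bases long, has a GC content of 74.4% and starts with the gt of the upstream donor.
MRPL11: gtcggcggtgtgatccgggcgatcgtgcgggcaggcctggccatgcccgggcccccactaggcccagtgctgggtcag

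As a group, the genes of the mitochondrial ribosome were expressed at nearly the same level in all 4 libraries. Their summed level was 5702 CPM in the WT library, 5756 with R625H, 5665 with K666T and 5616 with K700E. The median log2 ratio to WT of the 74 genes, computed on CPM with 10 reads added, was 0.02 in R625H, 0.00 in K666T and 0.00 in K700E, where the medians of all 14847 genes were -0.02, 0.00 and 0.00. In R625H, 0 of 74 genes were at least 0.32 log2 units higher and 0 at least 0.32 lower, a threshold used throughout as "apart", against 5.19% and 4.66% of all genes. K666T had 0 higher and 2 lower (all genes 7.05% and 3.96%), with 4 lower under trimmed-mean (TMM) scaling and 5 by junction reads, and K700E had 2 higher and 7 lower (all genes 11% and 8.79%). With TMM scaling the K700E split became 1 higher and 10 lower, and with median-of-ratios scaling 2 and 10. Shares of all genes were not counted under either scaling, so these member counts, that of K666T included, have no such reference. The large subunit (47 genes with a ratio, by symbol) and the small subunit (27 genes) had medians between -0.02 and 0.02 in every mutant.

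Between mutant libraries, 0 of 74 genes were apart for R625H against K666T, where 1.58% of all genes were higher and 2.29% lower. Both had equal plasmid amounts. R625H had 5 genes higher and 1 lower than K700E (all genes 4.41% and 6.38%), and K666T had 5 higher and 0 lower than K700E (all genes 3.68% and 4.42%). The comparisons with WT share the WT library, so they are given side by side and not as separate evidence.

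**Figure D2:**
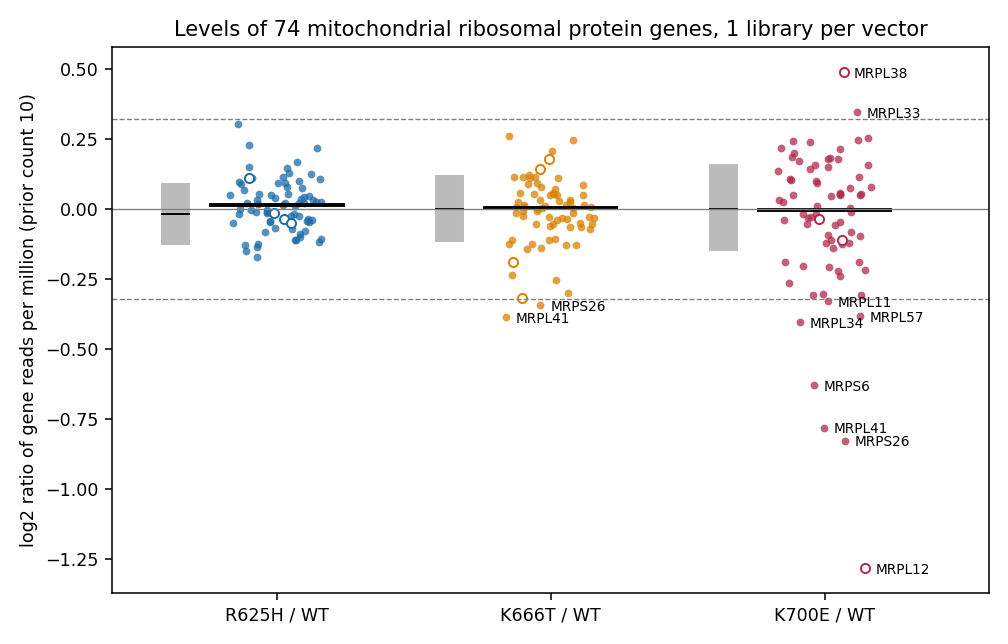
Each point is 1 of 74 genes; the vertical axis is the log2 ratio of gene CPM to WT, black bars are medians, grey boxes show the quartiles and median of all 14847 genes, and dashed lines mark 0.32 log2 units. Open circles are genes whose gene reads are incomplete, where another gene overlaps. The points of R625H stay inside the dashed lines, while 9 genes leave them in K700E.

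RNA levels of genes for this 1 particle differed widely. Per kilobase of exon, the median over 74 genes in WT was 30.5 CPM, with a range of 0.75 to 99.7. MRPL51 (99.7), MRPL15 (98.8), MRPL37 (95.3), MRPS34 (94.8), MRPL3 (94.7) and MRPS26 (72.6) were the highest on this scale, and the first 5 lay close together. The lowest were MRPL38 (0.75), MRPL46 (1.27), MRPL53 (3.94), MRPS6 (4.34), MRPS17 (4.63) and MRPL48 (7.87). MRPL38, MRPL46 and MRPL53 belong to 6 genes set apart by their few gene reads: MRPL12, MRPL30, MRPL38, MRPL46, MRPL53 and MRPS24 had more than 2 junction reads per gene read in WT. All 6 overlap another gene on the same strand in GENCODE 29, for example the readthrough gene URGCP-MRPS24, as do other members below that limit, such as MRPL33 with BABAM2. MRPS17 lies at exactly 2 and the most for a gene without such an overlap was 1.75, so the shortfall is least clear for MRPL46 at 2.6. Gene reads of the 6 are called incomplete here and their levels are uncertain: MRPL38 had 250 gene reads but 9369 junction reads in WT.

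The lowest ratios were found in K700E, in genes of different parts of the particle. MRPL12 is a protein of the stalk that recruits translation factors and is also reported to bind the mitochondrial RNA polymerase. It had 1502 gene reads in the WT library, 1325 with R625H, 1144 with K666T and 558 with K700E, with log2 ratios of -0.04, -0.316 (just inside the threshold of 0.322) and -1.28 (95% counting interval of the last, -1.44 to -1.16). The order from WT to K700E is the same in junction reads, with 13851, 11740, 11285 and 10076 reads, but the K700E ratio there was -0.44. MRPL12 is 1 of the 6 genes with incomplete gene reads, so the lower of the 2 ratios rests on the smaller set of reads.

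MRPS26 is a small subunit protein without a bacterial counterpart, and its gene is not among the overlapping ones. It stood at 81.9, 76.9, 64.6 and 46.1 CPM in WT, R625H, K666T and K700E. The log2 ratio in K700E was -0.83 (-0.88 to -0.77) by gene reads and -1.08 by junction reads, and in K666T -0.34 and -0.57. Both measures thus placed K700E lowest and K666T second.

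MRPL41, a large subunit protein specific to mitochondria, stood at 40.3, 38.1, 30.8 and 23.4 CPM. Its ratios were -0.39 (-0.46 to -0.32) in K666T and -0.78 (-0.86 to -0.70) in K700E. The single intron of the gene, chr9:140446431-140446525 on hg19, had 732, 566, 281 and 217 reads, so its junction ratio was -1.28 in K666T and -1.69 in K700E. Reads over the splice thus differed from WT more than reads over the gene, in the same order of libraries.

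MRPS6, at 18.7, 17.3, 16.9 and 12 CPM, had a ratio of -0.63 (-0.75 to -0.52) in K700E but -0.26 by junction reads. It overlaps SLC5A3 on the same strand, so its gene reads are uncertain too. MRPL34, the counterpart of a small basic protein of the bacterial large subunit, stood at 53.4, 48.9, 44.7 and 40.3 CPM, with -0.40 by gene reads and -0.48 by junction reads in K700E. MRPL57 (-0.38) and MRPL11 (-0.33) completed the 7 genes at least 0.32 log2 units lower in K700E. MRPL24 was below WT in all 3 mutants, at -0.17, -0.30 and -0.22.

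The highest mean ratios were smaller. MRPL1, the counterpart of the protein of the mobile L1 stalk near the exit site, stood at 33.4, 41.2, 40.01 and 39.4 CPM, with ratios of 0.30 (0.23 to 0.37), 0.26 (0.19 to 0.33) and 0.24 (0.17 to 0.31). WT was the lowest of the 4 libraries and the mutants lay close together. MRPL44, which stands near the exit tunnel, had ratios of 0.22, 0.25 and 0.24, and MRPS31 had 0.23, 0.21 and 0.25. MRPS18A and MRPS22 had 0.12, 0.12 and 0.22, and 0.15, 0.11 and 0.18. None of these reached 0.32 in any library by gene reads. By junction reads in K700E, MRPL44 was at 0.33, MRPL1 at 0.19 and MRPS18A at 0.20. MRPS31 and MRPS22 were at -0.02 and -0.06 there, so their higher K700E level was seen in gene reads only. MRPL33 reached it in K700E (0.34 by gene reads, 0.37 by junction reads). MRPL38, the other gene called higher there, had 0.49 from 250 to 324 gene reads but -0.19 from 9369 to 8094 junction reads, so its direction turned with the measure.

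At the other end, MRPL28 and MRPS14 hardly varied: MRPL28 lay between 0.01 and 0.03 over the mutants and MRPS14 between -0.07 and -0.05. The stalk genes besides MRPL12 did not move together, with MRPL10, which carries MRPL12, at 0.11, 0.14 and 0.17, MRPL11 at -0.08, -0.23 and -0.33 and MRPL53 at -0.05, -0.19 and -0.11. In the central protuberance (6 genes) 1 gene, MRPL38, was apart in K700E, and MRPL18 and MRPL27 had 0.18 and 0.18 there. At the polypeptide exit 0 of 7 genes with a ratio were apart in any mutant, with MRPL17 at -0.03, -0.06 and 0.08 and MRPL22 at 0.02, 0.02 and 0.20. In the decoding region MRPS5 (0.08, 0.01 and -0.02) and MRPS12 (-0.01, -0.05 and -0.03) stayed near 0. The 3 paralogs of the bacterial protein S18 sit at different places of the particle, MRPS18A in the large subunit despite its symbol. By gene reads they were above WT in K700E by 0.22 (MRPS18A), 0.15 (MRPS18B) and 0.25 (MRPS18C). By junction reads the K700E ratios were 0.20, 0.33 and -0.005, so MRPS18C was not above WT on that measure. MRPS18A, MRPS18B and MRPS18C had 37.04, 54.2 and 9.71 CPM per kilobase in WT.

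**Figure D3:**
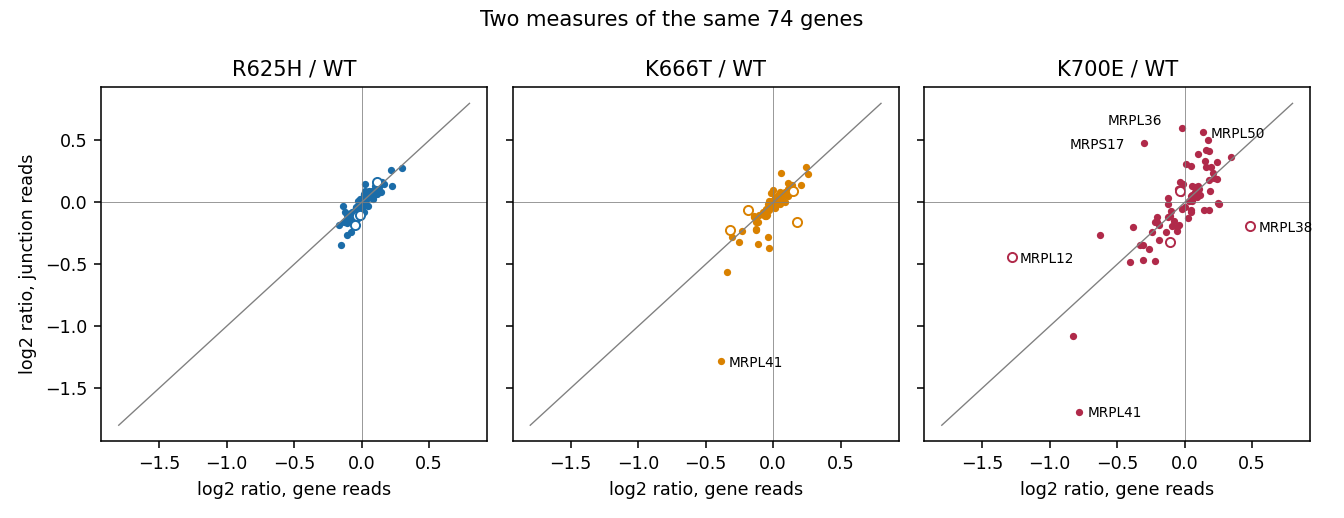
Each point is 1 of 74 genes; the horizontal axis is the log2 ratio to WT from gene reads, the vertical axis the ratio from reads on its annotated junctions, and the line marks equality. Open circles are genes with incomplete gene reads. MRPL41 lies below the line in K666T and K700E, and MRPL38 changes sign in K700E.

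Junction reads gave other values than gene reads mainly in K700E, and the examples here were picked for that after their values were seen. By junction reads, 12 of the 78 genes were at least 0.32 log2 units higher in K700E and 9 lower, against 11.5% and 11.3% of 12450 matched genes. Of the 74 genes with a gene ratio, 10 were higher and 9 lower by junction reads, where gene reads gave 2 and 7. In K666T 5 were lower by junction reads (5.24% of matched genes). The lower ones in K700E included MRPL4 and MRPS2, both at -0.47. MRPL36, a zinc-binding large subunit protein, had -0.02 by gene reads and 0.60 by junction reads in K700E, MRPL50 had 0.13 and 0.57, and MRPS17, which overlaps NIPSNAP2 on the same strand, had -0.30 and 0.48. MRPL45 and MRPS21, which have junction reads only, had 0.56 and 0.52. MRPL45 had 1799, 1928, 1736 and 2631 junction reads and MRPS21 3150, 2875, 2915 and 4463, with K700E highest in both. These reads come from 2 of 8 introns of MRPL45 and from 1 of 2 of MRPS21, the latter placed by the shift of neighbouring genes. In K700E, where first and last introns differed, reads on so few introns may not stand for the gene. MRPL30 and MRPS24 had junction ratios of 0.29 and -0.19 in K700E and of -0.06 and -0.31 in K666T. The higher junction reads of K700E fall in the library in which first introns were above last introns.

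Ratios tended to be lower in genes with transcripts richer in GC. Across the 74 genes, the GC content of the longest coding transcript ran from 34.96% to 71.9%, with a median of 49.6%. Its correlation with the log2 ratio was Pearson -0.45 and Spearman -0.43 in R625H, -0.46 and -0.36 in K666T, and -0.46 and -0.42 in K700E, as a description across genes that share libraries and are not replicates. Over 12798 protein-coding genes the Pearson values were -0.13, -0.17 and -0.10. The 25 genes of lowest GC content (34.96% to 45.6%) had a median of 0.10 in K700E and the 25 of highest GC content (52.9% to 71.9%) -0.12. MRPL41 at 71.9%, MRPL12 at 64.6% and MRPS26 at 63.4% are among the richest in GC, while MRPL1 (39.1%) and MRPS31 (39.7%) are among the poorest. In K666T and R625H the 25 genes of highest GC content had medians of -0.03 and -0.02. The 24 of middle GC content had -0.02 in R625H as well. All protein-coding genes in the same GC ranges had medians of -0.03 at the high end in K700E, -0.05 in K666T and -0.06 in R625H. The genes described here were thus further below 0 than these in K700E only. The part of base composition in the ratios was not tested.

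**Figure D4:**
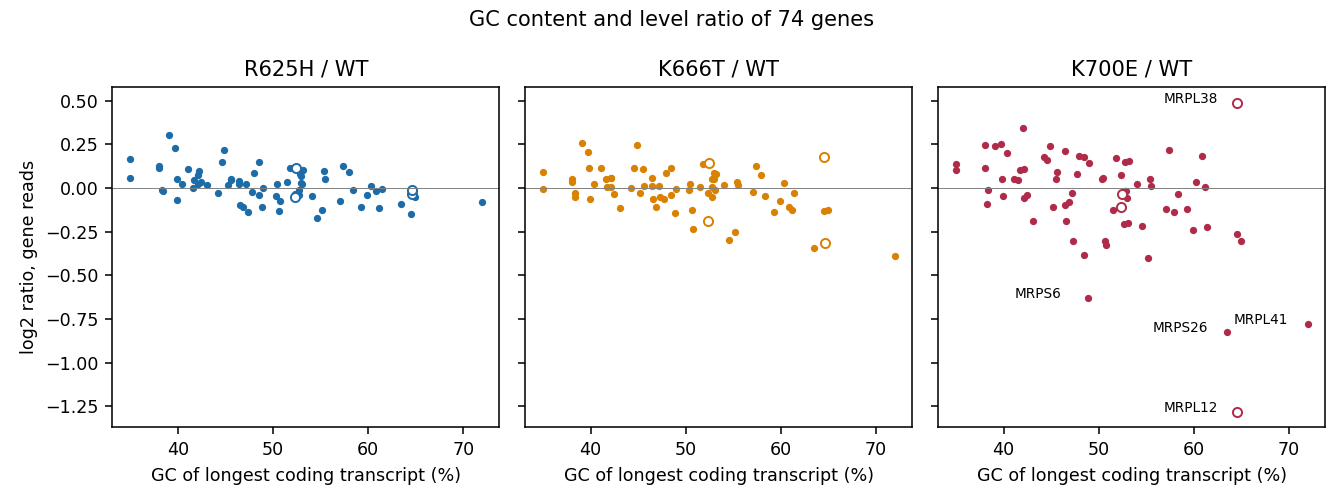
Each point is 1 of 74 genes; the horizontal axis is the GC content of the longest coding transcript in percent and the vertical axis the log2 ratio of gene CPM to WT. Open circles are genes with incomplete gene reads. Of the 7 genes at least 0.32 log2 units lower in K700E, 4 are among the 25 richest in GC and 3 (MRPS6, MRPL57 and MRPL11) among the 24 of middle GC content.

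At splice sites, the question was whether acceptors of these genes shifted as known for SF3B1 mutants. A pair was called where Fisher's exact test, two-sided and adjusted by Benjamini-Hochberg over all pairs of the genome, gave p under 0.05 and the share of reads at the upstream site differed by at least 10 percentage points, with at least 20 reads in both libraries. Among acceptor pairs 3 to 100 nt apart, 12 of 387 pairs in these genes were called in R625H, 12 of 386 in K666T and 11 of 389 in K700E, against 2.41%, 2.33% and 2.41% of all pairs tested. In the range of 10 to 30 nt these were 3 of 131, 2 of 132 and 3 of 131, against 2.63%, 2.35% and 2.33%. Nearly all calls were sites with no read at all in some library: of 24 acceptor pairs called in any mutant, 22 had 1 side unread in at least 1 library, in MRPL12, MRPL13, MRPL20, MRPL21, MRPL3, MRPL39, MRPL51, MRPL55, MRPS11, MRPS18C, MRPS21, MRPS28, MRPS34 and MRPS6. The junction files list a junction only where it passed the aligner's filters in that library, so an unlisted junction counted as 0 reads here. Among pairs with both sides read in all 4 libraries, 0 of 27 pairs 10 to 30 nt apart were called in any mutant, against 4.07%, 3.01% and 3.03% of all such pairs. By Fisher's exact test alone, with no minimum difference, 16 pairs of 131 in R625H had a larger share at the upstream site, 11 of 132 in K666T and 13 of 131 in K700E (6.31%, 5.08% and 5.32% of all pairs).

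Small amounts of upstream acceptor use did appear in these genes. The pooled shares and the upstream acceptors named from here on were chosen after their values were seen. Unannotated acceptors 10 to 30 nt before an annotated one were counted as junctions, so an acceptor joined to several donors entered once for each. Over 92 such junctions, in 48 of the genes, the upstream site held 96 of 87469 WT reads (0.110%, 95% Wilson interval 0.0899 to 0.134%). It held 494 of 80846 with R625H (0.611%, 0.560 to 0.667%), 294 of 82473 with K666T (0.356%, 0.318 to 0.400%) and 261 of 80764 with K700E (0.323%, 0.286 to 0.365%). Over 15303 such junctions in all matched genes the shares were 0.170%, 0.373%, 0.271% and 0.289%. At 31 to 100 nt the same genes had 0.200%, 0.215%, 0.271% and 0.205%. R625H thus had the highest share and WT the lowest at 10 to 30 nt, and the intervals of K666T and K700E overlapped. Junction by junction, the share was above WT at 43, 45 and 40 of the 92 in R625H, K666T and K700E. It was below WT at 18, 17 and 20. A 13-nt site of MRPS34, for example, had 5.77% in WT and 4.03%, 0% and 3.68% in the mutants. Many differences rest on a few reads, and a pair unread in WT entered with a WT share of 0. The upstream site was read at 35, 51, 51 and 48 of the 92 in WT, R625H, K666T and K700E. Over the 15303 in all matched genes these were 4821, 7962, 6997 and 7195, and shares above WT were not counted there. Without MRPS18C and MRPS9, the pooled shares were 0.0857%, 0.411%, 0.229% and 0.248%. These shares still hold the 18-nt site of MRPL3, with 0 WT and 77 R625H reads, and an 18-nt site of MRPS30, with 5 and 54. The pooled difference of R625H from WT thus rests in large part on a few sites.

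MRPS18C, 1 of the S18 paralogs, had the most reads of this kind. The acceptor at position 84379477 of chromosome 4 (hg19), 21 nt before the annotated one, whose sequence is printed above, took 7 of 1089 reads in the WT library (0.64%), 89 of 996 with R625H (8.94%), 67 of 1028 with K666T (6.52%) and 42 of 826 with K700E (5.08%). All 3 mutant libraries lay above WT, with Fisher's exact test adjusted p of 6.75e-20, 4.64e-13 and 3.28e-08. R625H also lay above K700E (adjusted p = 0.022, Fisher's exact test), while R625H and K666T did not pass (0.315). The exon behind this acceptor is coding and 84 nt long. Of all reads from its upstream donor to the annotated acceptor, the upstream acceptor or the next exon, skipping took 19.69% in the WT library, 27.77% with R625H, 23.40% with K666T and 29.46% with K700E. The annotated acceptor took 79.79%, 65.77%, 71.61% and 66.95% of these reads. As an exon with both its junctions, its inclusion was 81.67%, 72.93%, 77.52% and 74.23%, which passed Fisher's exact test in R625H (adjusted p = 7.5e-06) and K700E (0.000294) but stayed under 10 points. The level of MRPS18C by gene reads was above WT at the same time, by 0.11, 0.05 and 0.25 on the log2 scale. By junction reads the ratios were 0.07, 0.01 and -0.005.

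MRPS9, the counterpart of a small subunit head protein that reaches toward the P-site tRNA, showed the same order with a wider gap between mutants. Its acceptor at position 105716106 of chromosome 2 (hg19), 21 nt upstream, took 0.22% of 899 reads in the WT library, 7.79% of 847 with R625H, 2.93% of 886 with K666T and 2.49% of 724 with K700E. R625H differed from K666T (adjusted p = 0.000164) and from K700E (5.57e-05) in Fisher's exact test. MRPS30, a large subunit protein despite its symbol, had 0.46% of 1088, 5.31% of 1016, 1.01% of 1192 and 1.52% of 853 reads at position 44814996 of chromosome 5, 18 nt upstream. There R625H passed against WT (4.5e-11, Fisher's exact test) while K666T (0.663) and K700E (0.134) did not.

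MRPL3 had a site that was read almost only in R625H. At position 131181738 of chromosome 3, 18 nt before the annotated acceptor, the reads were 0 of 2466 in the WT library, 77 of 2318 with R625H (3.32%), 1 of 2314 with K666T and 3 of 1640 with K700E. R625H differed from K666T (adjusted p = 2.19e-20) and from K700E (4.92e-13) in Fisher's exact test, so the difference between mutants itself passed. A second acceptor of the same gene, 13 nt upstream at position 131188631, had another order: 0 of 3065, 17 of 2922 (0.58%), 31 of 3033 (1.02%) and 17 of 2662 (0.64%). The 3 mutant libraries were not distinguished there, with adjusted p of 0.387, 1 and 0.643 in Fisher's exact test. MRPL3 lies near the peptidyl transferase centre as its bacterial counterpart does, and its level was within 0.04 log2 units of WT in each mutant.

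MRPS33, MRPL40 and MRPS27 had larger upstream shares in all 3 mutants than in WT. MRPS33, a small subunit protein specific to mitochondria, had 0 of 241 WT reads and shares of 4.72%, 4.82% and 3.79% in the mutants, in the order R625H, K666T, K700E, 18 nt before an acceptor of its untranslated region (chromosome 7, position 140710436). MRPL40, 11 nt upstream on chromosome 22 (position 19423149), had 0.38%, 2.71%, 1.61% and 1.71%. MRPS27, a pentatricopeptide repeat protein, had 0 of 770 WT reads and 2.24%, 1.19% and 1.68% in the mutants at the 15-nt site printed above (chromosome 5, position 71524211). For these 3 genes, no pair of mutant libraries passed Fisher's exact test, which rested on 8 to 30 upstream reads per library. In MRPL43 an acceptor 18 nt upstream was read 17 times in R625H and 0 times elsewhere, but the pair had only 5 reads in WT and was not tested.

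**Figure D5:**
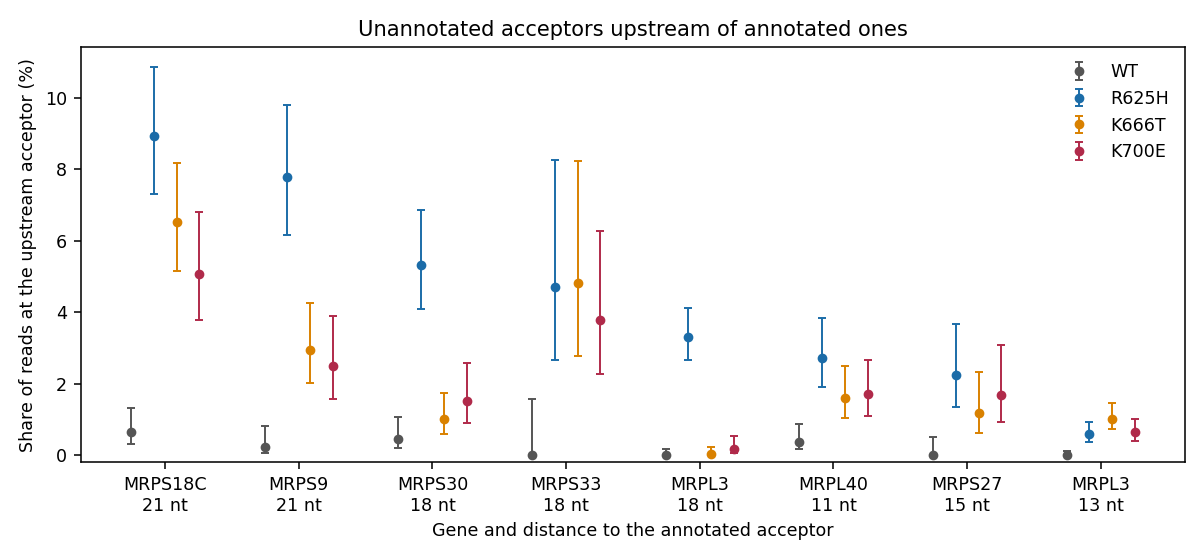
The vertical axis is the percent of reads at the unannotated upstream acceptor, of those at it and the annotated acceptor, for 8 pairs in 7 genes; colours are libraries and bars are 95% Wilson intervals for counting error. WT lies lowest throughout, and MRPS9, MRPS30 and the 18-nt site of MRPL3 are highest in R625H.

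Calls with 10 points or more at annotated sites read in all 4 libraries were few. Of 54 called pairs and exons in 22 genes, 5 had both ends annotated and reads on both sides in every library. The best covered was MRPL11, whose protein forms the base of the stalk. Its upstream donor (chromosome 11, position 66206180, hg19), which leaves out the 78 coding bases printed above, took 23.40% of 2218 reads in the WT library, 23.58% of 1913 with R625H, 27.36% of 1681 with K666T and 36.21% of 1715 with K700E. K700E differed from WT (adjusted p = 3.41e-16), R625H (1.28e-14) and K666T (2.3e-06) in Fisher's exact test, while K666T did not differ from WT beyond the threshold (0.14). Both donors share 1 acceptor, at 66205731. Donor pairs were called 1 time in 247 in R625H, 1 in 253 in K666T and 4 in 253 in K700E, against 0.781%, 0.885% and 1.0% of all donor pairs. Besides MRPL11 these were in MRPL42, MRPL51, MRPL53, MRPS23 and MRPS6, each with 1 side unread in some library.

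Cassette exons were called 3 times among 1740 in R625H, 9 among 1745 in K666T and 18 among 1746 in K700E, against 0.385%, 0.464% and 0.711% of all exons, and 13 of the 18 were lower in K700E (0.515% of all exons). Several of these share junctions and are not separate events. MRPL22 stands at the polypeptide exit, and its called 136-nt exon shares its end with the common, shorter form, chr5:154330381-154330498. The called form was included in 68.00% of reads in the WT library, 69.16% with R625H, 70.06% with K666T and 53.85% with K700E. K700E was called lower than WT (adjusted p = 2.09e-09, Fisher's exact test). The annotated acceptor of this longer form, 154330362, lies 18 nt before that of the common form. From 1 donor it took 17, 57, 28 and 63 reads in that library order, where the common acceptor took 1628, 1492, 1596 and 2290. Inclusion of this common exon of MRPL22 was 82.08%, 82.43%, 83.43% and 75.61% in WT, R625H, K666T and K700E, under 10 points apart (adjusted p = 6.89e-05 for K700E, Fisher's exact test). On the upstream side of the MRPL22 exon, 83.23% of reads entered it in WT and 79.90% in K700E, and on the downstream side 80.75% left it in WT and 68.98% in K700E. The size of the K700E difference in MRPL22 thus depended on which junction was read, in a gene whose first intron was above its last by 0.71 log2 units in K700E. In MRPL55, a 67-nt noncoding exon (chr1:228296656-228296722) had 56.67%, 58.92%, 58.82% and 67.11% inclusion, called in K700E against WT (adjusted p = 2.48e-06, Fisher's exact test). Set against skipping from another upstream donor of MRPL55, the same exon had 68.43%, 71.12%, 69.71% and 69.52% of 928 to 1099 reads, with an adjusted p of 1 for K700E in the same test. The call therefore belongs to 1 way of skipping this exon.

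Further calls named here, not all of this kind, rest on few reads or on a minor site. MRPL52 has a pair of acceptors 3 nt apart, at 23299258 and 23299261 on chromosome 14. From a minor donor, its upstream acceptor took 78.08% of 219 reads in WT and 89.29% of 280 in K700E (adjusted p = 0.0095, Fisher's exact test), but from the major donor of MRPL52 the shares were 65.58% of 2019, 66.74% of 1771, 68.90% of 1810 and 63.75% of 2425. A 3-nt pair in MRPL55 with 37, 20, 27 and 22 reads was called in K666T. A 140-nt exon of MRPL20 was included in 65.31% of 49 WT reads, 36.96% of 92 in both R625H and K666T, and 19.69% of 193 in K700E. MRPL37 exons were called in K666T (12.20% of 41 reads in WT, 47.69% of 65) and MRPS15 exons in K700E (73.68% of 76 reads in WT, 32.14% of 56). The called exons of MRPL20, MRPL37 and MRPS15 do not have both ends annotated.

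Genes that act with the mitochondrial ribosome were at least 0.32 log2 units from WT mainly in K700E, where 11% of all genes were higher and 8.79% lower. Of 24 assembly factors with a ratio, 0 were apart in R625H, 0 in K666T and 3 were lower in K700E, all with their values decreasing from R625H to K700E: MALSU1 (0.00, -0.17 and -0.57), which keeps the subunits from joining early, RPUSD3 (-0.09, -0.22 and -0.39) and NGRN (-0.04, -0.24 and -0.33). Of 14 factors of mitochondrial translation, 1 was lower in R625H, 0 in K666T and 2 in K700E; OXA1L, the insertase that receives the new proteins, had -0.38, -0.30 and -0.42. Among 5 further proteins of the ribosome, AURKAIP1 (-0.04, -0.19 and -0.50) and GADD45GIP1 (0.05, -0.17 and -0.50) were the 2 lower in K700E, while DAP3, CHCHD1 and PTCD3 lay within 0.09 of WT. None of the genes in these lists was apart in all 3 mutants. The 13 mRNAs made inside mitochondria, the templates of this ribosome, had medians of 0.08, -0.09 and -0.42, with 9 lower and 1 higher in K700E. The 86 cytosolic ribosomal protein genes with a ratio had medians of 0.02, -0.06 and -0.05, with 2 higher and 8 lower in K700E, and 78 nuclear respiratory chain subunit genes -0.05, -0.09 and -0.07, with 1 higher and 17 lower. No test was made between these lists.

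Promoters of the genes were compared by short motifs, as a description. RefSeq promoter windows (GRCh38.p14, 250 bases before to 50 after the start) were found for 69 of the 78 genes; MRPL2, MRPL10, MRPL13, MRPL15, MRPL21, MRPL23, MRPL35, MRPS28 and MRPS36 had none. On either strand, the YY1 motif AAGATGGC was present in 20 of 69 windows (29%), against 3.91% of 15842 promoters of protein-coding genes. The ETS-family motif CCGGAAGT, bound by GABPA, was in 11 (15.9% against 6.19%) and the NRF1 motif GCATGCGC in 6 (8.7% against 4.26%). GGGCGG (SP1) was in 60.9% against 58.5%, CCAAT in 29% against 36.4% and TATAAA in 2 windows (2.9% against 9.63%). YY1 and GABPA, whose motifs these are, stood at 185, 197, 197 and 182 and at 82.2, 85.9, 87.2 and 84.99 CPM, with little difference between libraries. NRF1 stood at 24.9, 24.4, 24.5 and 24.5 CPM. MYC, another regulator of genes for mitochondria, stood at 212 CPM in WT and 168 to 171 in the mutants, past the threshold in R625H (-0.33) and K666T (-0.33) but not in K700E (-0.31). PPRC1 of the same list had 0.18, 0.20 and 0.22, and 0 of the 9 regulators were past it in K700E.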

How the data were processed

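Per the labels' protocols, libraries were made with TruSeq Stranded mRNA and sequenced as 100-bp paired ends; the submitters' processing notes name STAR 2.5.3a, HTSeq and hg19 (GRCh37). What the authors deposited are unnormalized counts of reads, by gene (the sense-strand column was used) and by junction (uniquely mapped reads). Rows that name no gene (21.9% to 29.55% of all reads) were left out. Ratios are log2 CPM with a prior count of 10 over genes with at least 1 CPM in some library; intervals are 95% conditional binomial and cover counting error only. Junction tests used Fisher's exact test genome-wide. A check on simulated counts covered only acceptor pairs 10 to 30 nt apart and held counting error only, with no unlisted junctions. GENCODE 29 introns were matched to hg19 junctions by length and order, with at least 2 introns or 1 intron at the shift of neighbours; 297 of 16130 matched genes, 2 of them members, also matched a wrong chromosome. RPS6K kinases and NDUFAF factors were left out of the comparison lists. Named genes follow a rule: any call; the 6 highest and lowest mean ratios and levels; the 4 widest and 2 narrowest spreads; and the first 2 of each structural list. The members, lists and tests were chosen with earlier results of these data known. edgeR and DESeq2 gave alternative scalings only.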

Additional observations from a re-analysis of the deposited data

How the results depend on the processing

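Each vector has 1 library, so depth and counting error are the only errors measured, and no leave-one-out fit exists. No paired analysis was possible because each group has 1 library. Fold thresholds, scalings and read minimums were planned; the counts from adjusted p alone and those without the 6 genes whose gene reads are incomplete were added after the data were seen. Causes of the shifts below were not tested, except that stricter minimums leave fewer pairs.

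The count of genes at least 0.32 log2 units lower was 1 in R625H and 5 in K666T by junction reads, 4 in K666T with TMM scaling and 0 in K666T at 1.5-fold. In K700E the genes higher numbered 1 with TMM scaling, 12 by junction reads (of 78 genes, 10 of them among the 74 with a gene ratio), 1 without the genes with incomplete reads and 0 at 1.5-fold, and 4 were lower at 1.5-fold. MRPL38 in K700E turned to -0.19 by junction reads. For R625H against K666T the median was 0.0541 with TMM, 0.0441 with median-of-ratios and 0.0373 by junction reads, with 1, 1 and 2 genes higher. R625H against K700E had 3 higher and 0 lower at 1.5-fold, and 2 lower by unstranded counts, 11 by junction reads and 0 without incomplete genes. K666T against K700E had 2 higher and 11 lower by junction reads, 1 higher at 1.5-fold and 1 lower by unstranded counts. By junction reads, 7.99% of matched genes were lower for R625H against K700E. For K666T against K700E, 5.57% were higher and 7.09% lower. Shares of all genes under the other settings are not given in this section.

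Splicing counts follow in the order R625H, K666T and K700E against WT, R625H against K666T and K700E, and K666T against K700E. The share of all pairs or exons called is not given for each setting. These counts therefore describe the settings and are not results about these genes. Acceptor pairs called (12, 12, 11, 18, 17 and 17) became 3, 3, 3, 8, 10 and 3 at 50 reads, 30, 21, 25, 34, 34 and 32 with multi-mapped reads, 0, 1, 1, 0, 0 and 0 with both sides read in all 4 libraries, and 64, 56, 56, 59, 64 and 55 by adjusted p alone. At 10 reads R625H against WT had 20. Donor pairs (1, 1, 4, 4, 4 and 4) became 32, 19, 34, 38, 42 and 38 with multi-mapped reads, 0, 0, 1, 0, 1 and 0 with both sides read, and 5, 11, 13, 12, 10 and 12 by adjusted p alone. At 50 reads they were 0 in R625H and 1 in K700E against WT, and 1, 2 and 2 between mutants. Cassette exons (3, 9, 18, 3, 5 and 13) became 68, 85, 115, 105, 75 and 127 with multi-mapped reads. At 50 reads they were 0, 0 and 9 against WT and 7 for K666T against K700E, and with both sides read 1 and 3 for R625H and K666T against WT. At 5 points they were 6 for R625H and 34 for K700E against WT, 10 for R625H against K700E and 21 for K666T against K700E. By adjusted p alone they were 13, 22 and 56 against WT, and 15 and 27 against K700E. R625H against K666T had 5 at 10 reads, and R625H against K700E had 2 with an overhang of at least 20 bases.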
